A study of Homo sapiens with 16 samples.

Results

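The FOXA, FOXP and HNF4 genes followed here were FOXA1, FOXA2, FOXA3, FOXP1, FOXP2, FOXP4, HNF4A and HNF4G, 8 of the 35810 genes summed from the transcript tables. They were chosen by name, with their measured levels in these libraries known, so their levels and changes are given as a description. How many of them passed the fit across all genes is counted further on, and nothing is read from that count. The cells were pancreatic progenitors made from NGN3-GFP, a reporter line derived from the human embryonic stem cell line SA121, and the question was how their RNA changed after latrunculin B (LatB), a compound that blocks actin polymerisation. Treatment began on day 19 of differentiation at 0.5 µM, and RNA was sequenced after 3, 6, 12 and 24 h of LatB (3, 3, 2 and 3 libraries), from control cells of the starting time (0 h, 3 libraries) and from control cells kept with the vehicle DMSO for 24 h (2 libraries). The labels also tag the 0 h control with DMSO, while the text of the series places it before treatment. All groups share 1 reporter line, and no vehicle group matches 3, 6 or 12 h, so that LatB and time in culture cannot be told apart at those times. Nothing says that the libraries of a group came from separate cultures, and p-values then measure only the spread between these libraries, which may be technical.

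FOXA proteins are pioneer factors of the forkhead family that open chromatin in the early endoderm and later act in liver, pancreas, lung and gut. FOXP proteins are forkhead repressors that pair with each other through a leucine zipper and recruit corepressor complexes. HNF4A and HNF4G are orphan nuclear receptors that bind DNA as dimers at direct repeats and drive genes of lipid and glucose handling in liver, gut, kidney and pancreas, and HNF4A has a downstream promoter (P1) and a distal upstream promoter (P2).

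The libraries held between 23609727 and 33515398 estimated reads. Of 10 pancreatic progenitor markers only PTF1A averaged under 1 TPM (transcript abundance per length, as a share of the library), and so did 2 of 8 liver markers (ALB and AHSG) and 3 of 6 pluripotent markers (DPPA4, NANOG and SOX2) in control cells at 0 h. The other liver markers lay between 27.2 TPM (AFP) and 832 TPM (FGB) there, and the pluripotent marker LIN28A was at 176 TPM, beside 162 TPM for the progenitor marker PDX1. The 2 LatB libraries of 12 h stood apart from each other: their log2 levels correlated at 0.967 over all genes, against 0.980 to 0.986 for the other pairs of libraries of 1 group. The summed TPM of 8 mesenchyme markers was 232 in replicate 1 and 873 in replicate 2 at 12 h, against 312 to 379 in the control libraries, and that of 8 liver markers was 3048.5 and 4749.6, against 1978 to 2854 in the controls. At 24 h of LatB the summed TPM of 12 endocrine markers was 140.2 in replicate 1, 499 in replicate 2 and 438 in replicate 3. In bulk RNA, fewer cells of a type and less RNA per cell cannot be told apart.

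**Figure D1:**
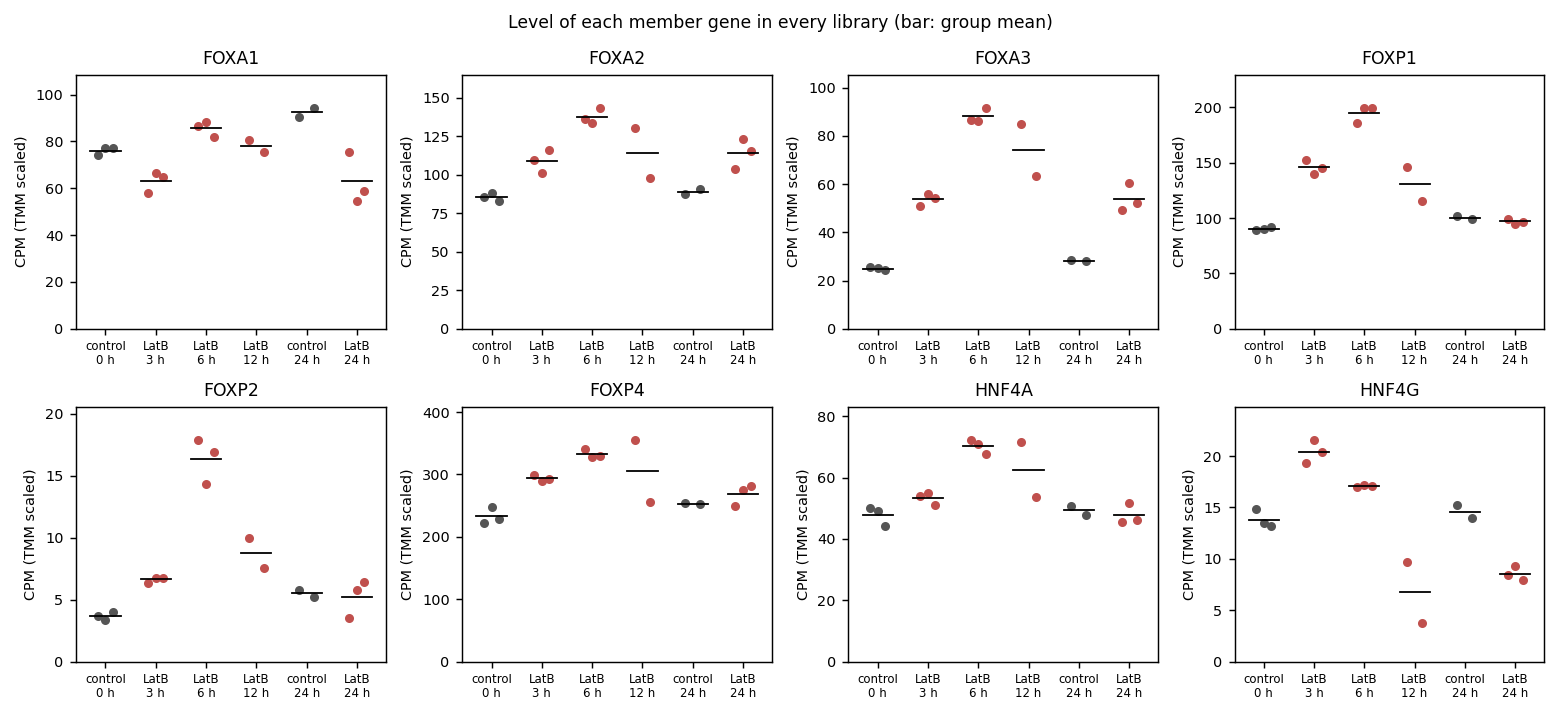
Level of the 8 genes in every library, in CPM (reads scaled to a common library size, linear axis from 0), by group along the x axis. Points are libraries, red for LatB and grey for control, and black bars are group means. FOXA2, FOXA3, FOXP1, FOXP2, FOXP4 and HNF4A had their highest group mean at 6 h of LatB, HNF4G had its highest at 3 h and FOXA1 in the control at 24 h.

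Among the FOXA genes, FOXA3 changed most. FOXA3 lies on chromosome 19 (GRCh38, 45863989 to 45873797, plus strand) and acts largely in liver, where it backs up its paralogues. In CPM, reads scaled to a common library size, its level was 25.5, 25.1 and 24.3 CPM in the 3 control libraries at 0 h and 28.3 and 28 CPM in the 2 at 24 h. With LatB it was 50.9, 56.0 and 54.1 CPM at 3 h, 86.6, 86.1 and 91.7 CPM at 6 h, 85.0 and 63.5 CPM at 12 h, and 49.2, 60.5 and 52.0 CPM at 24 h. Each LatB library stood above each control library. The fitted log2 change, given here and below ± its standard error (SE), was 1.1 ± 0.0968 at 3 h, 1.82 ± 0.0974 at 6 h and 1.57 ± 0.105 at 12 h against control 0 h, and 0.94 ± 0.109 at 24 h against control 24 h. In linear terms this was 3.53-fold higher at 6 h and 1.91-fold higher at 24 h. The control at 24 h differed from that at 0 h by 0.17 ± 0.109.

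FOXA3 was also the member with the simplest start: its 2 transcripts begin within 1 cluster of annotated starts. The window around it, from RefSeq (GRCh38.p14, chr19:45864076-45864375, plus strand, 250 bases before the start site to 50 after), is shown because FOXA3 had the widest change of the abundant members. Capitals mark the only match to the motifs searched, TATAAA on the plus strand at position -30 from the start site.

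FOXA3: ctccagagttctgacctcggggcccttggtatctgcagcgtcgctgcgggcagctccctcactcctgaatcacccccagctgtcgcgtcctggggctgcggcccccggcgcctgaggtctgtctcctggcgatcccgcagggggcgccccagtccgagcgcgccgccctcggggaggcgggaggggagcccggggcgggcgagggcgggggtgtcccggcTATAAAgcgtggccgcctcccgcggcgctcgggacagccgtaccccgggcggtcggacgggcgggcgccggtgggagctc

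The letters searched, on both strands, were TGTTTAC for forkhead proteins, CAAAGTCCA for HNF4 proteins, AGATAA for zinc finger factors of the GATA family, GGAATG for TEAD proteins, TATAAA as the core of the TATA box and CCAAT as that of the box named after it. No pair of matches printed here overlaps. Of the 35116 RefSeq windows of this length, 11.5% held TATAAA, 3.42% the forkhead letters, 0.384% those for HNF4, 10.3% those for GATA factors, 14% those for TEAD and 34.6% those of the CCAAT box. Windows of 6 of the 8 genes were read, 13 windows in all, and TGTTTAC occurred in 1 of them, a FOXP1 window. None was held for FOXA2, and member windows on chromosome 8, where HNF4G lies, were left out. A match is a description of letters, and none of binding.

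FOXA2 is the FOXA gene tied most closely to the floor plate, the definitive endoderm and the islet, and it lies on chromosome 20 (22580998 to 22585455, minus strand). Its level was 85.5, 88.4 and 82.8 CPM in control cells at 0 h and 87.6 and 90.7 CPM at 24 h. LatB libraries held 109.7, 101 and 116 CPM at 3 h, 136, 134 and 144 CPM at 6 h, 131 and 98.2 CPM at 12 h, and 104, 123 and 115 CPM at 24 h. As with FOXA3, no LatB library overlapped a control library, but the distance was smaller. The log2 change was 0.35 ± 0.0909 at 3 h, 0.69 ± 0.091 at 6 h, 0.42 ± 0.101 at 12 h and 0.36 ± 0.102 at 24 h.

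FOXA1 did not share this course. FOXA1, known for opening chromatin for steroid receptors in breast and prostate besides its role in endoderm, lies on chromosome 14 (37589552 to 37596059, minus strand). It was at 74.2, 77.0 and 77.1 CPM in control cells at 0 h, and at 90.6 and 94.4 CPM in those at 24 h. LatB libraries held 58.1, 66.5 and 64.9 CPM at 3 h, 86.5, 88.4 and 81.9 CPM at 6 h, 80.4 and 75.4 CPM at 12 h, and 75.5, 54.5 and 58.9 CPM at 24 h. The groups did not overlap at 3 h and at 24 h, with LatB lower, nor at 6 h, with LatB higher, and they overlapped at 12 h. The log2 change was -0.27 ± 0.0941 at 3 h, 0.17 ± 0.0938 at 6 h, 0.03 ± 0.105 at 12 h and -0.56 ± 0.103 at 24 h. On the TPM scale, with 1 added before the log, the value at 6 h was -0.03 and thus of the other sign, as it was against the control at 24 h (-0.11). The FOXA1 library nearest the control at 24 h, replicate 1, was the one with the lowest summed endocrine markers. The part of those markers in the result was not tested.

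The composition of the FOXA group moved accordingly. TPM, which accounts for transcript length, allows levels to be compared between genes. Summed over the FOXA genes it was 109 ± 1.14 TPM (SD, n = 3) in control cells at 0 h and 171 ± 2.30 TPM (n = 3) at 6 h of LatB. FOXA1 held 44.6% ± 1.49 (SD, n = 3) of the sum at 0 h, 46.7% ± 0.102 (n = 2) in control cells at 24 h and 28.9% ± 5.31 (n = 3) after 24 h of LatB. FOXA3 held 17.4% ± 0.587 at 0 h, 17.2% ± 0.273 in control cells at 24 h, 36.1% ± 0.979 at 6 h of LatB and 29.7% ± 2.62 at 24 h of LatB. FOXA2 stayed between 35.2% and 41.3% in all group means. In these sums FOXA1 led in both control groups, and FOXA2 led in each LatB group, at 6 and 12 h about level with FOXA3. The lead of FOXA1 rested on 1 short upstream transcript with few reads: without it, a choice made after seeing the data, FOXA1 held 34.5% at 0 h and 37.6% in control cells at 24 h, FOXA2 held 45.0% and 42.3%, and FOXA2 led in all 6 groups. The FOXA1 share after LatB was then 22.6%, 20.8%, 23% and 22.3% at 3, 6, 12 and 24 h.

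**Figure D2:**
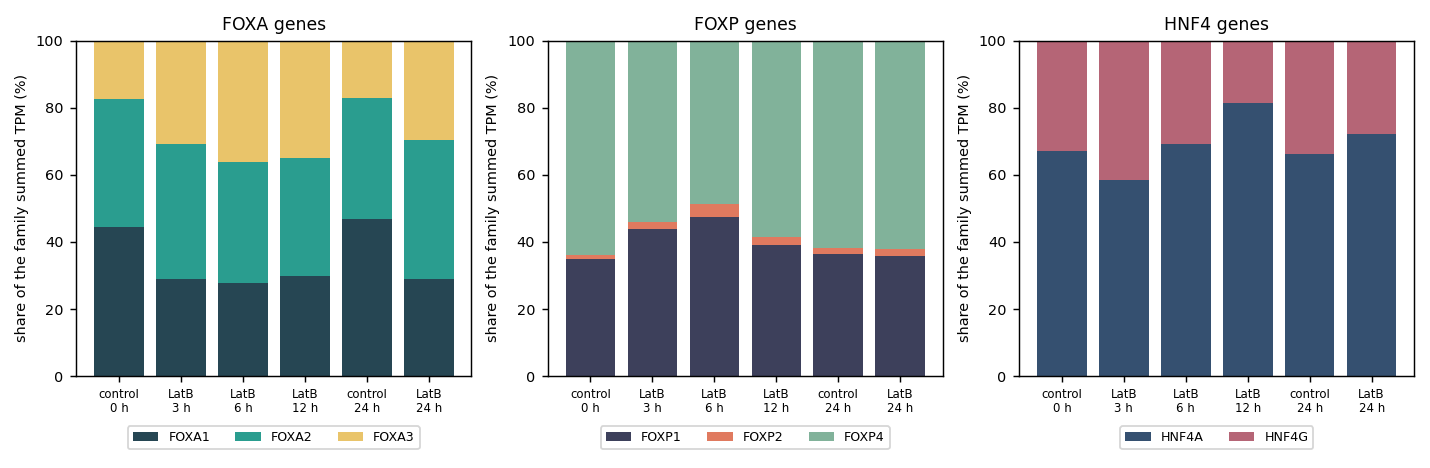
Mean share of each gene in the summed TPM of its family (y axis, percent, from 0 to 100) in the 6 groups (x axis); colours stand for genes and bars for group means of 2 or 3 libraries. FOXA3 grew from 17.4% to 36.1% of the FOXA sum between control 0 h and 6 h of LatB, and HNF4G shrank from 32.9% to 18.5% of the HNF4 sum between control 0 h and 12 h.

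The FOXP genes were higher at 3, 6 and 12 h of LatB, and at 24 h each group overlapped its control. FOXP1, which restrains gene programs in lymphocytes, heart, lung and neurons, lies on chromosome 3 (70954693 to 71583978, minus strand). It was at 89.6, 89.7 and 92.0 CPM in control cells at 0 h and at 102 and 99.2 CPM at 24 h. With LatB it was at 152, 140.2 and 145 CPM at 3 h, 186, 199.8 and 199 CPM at 6 h, 146 and 115 CPM at 12 h, and 99.6, 95.1 and 96.3 CPM at 24 h. The last of these overlapped the control at 24 h. Its log2 change came to 0.69 ± 0.0691 at 3 h, 1.11 ± 0.0694 at 6 h, 0.53 ± 0.0764 at 12 h and -0.05 ± 0.0769 at 24 h.

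FOXP2, best known for its part in speech circuits and also active in lung and gut, lies on chromosome 7 (114086327 to 114693772, plus strand). It was the least abundant member by mean TPM in each group, with 92 to 469 estimated reads per library. In CPM HNF4G was lower at 12 h of LatB, with a mean of 6.73 CPM against 8.78 CPM for FOXP2. Control cells held 3.67, 3.38 and 3.99 CPM at 0 h and 5.80 and 5.2 CPM at 24 h. LatB cells held 6.36, 6.75 and 6.78 CPM at 3 h, 17.9, 14.3 and 17.0 CPM at 6 h, 9.97 and 7.58 CPM at 12 h, and 3.48, 5.77 and 6.45 CPM at 24 h. The libraries of 6 h thus stood well above all others, and those of 24 h lay on both sides of their control. The log2 change was 0.85 ± 0.19 at 3 h, 2.16 ± 0.191 at 6 h, 1.25 ± 0.207 at 12 h and -0.07 ± 0.207 at 24 h. The control at 24 h was itself higher than that at 0 h by 0.58 ± 0.211, and against it the value at 3 h was 0.27.

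FOXP4, a partner of FOXP1 and FOXP2 in lung and gut epithelium, was the most abundant member on the TPM scale in both control groups and lies on chromosome 6 (41546381 to 41602384, plus strand). Its level was 222, 248 and 229 CPM in control cells at 0 h and 254 and 253 CPM at 24 h. LatB libraries held 299, 289 and 293 CPM at 3 h, 341, 327 and 330.1 CPM at 6 h, 354 and 256 CPM at 12 h, and 250, 274 and 282 CPM at 24 h. The second library of 12 h was close to the controls, and the first was the highest of all. On the log2 scale it differed by 0.33 ± 0.0903 at 3 h, 0.51 ± 0.0904 at 6 h, 0.39 ± 0.10 at 12 h and 0.09 ± 0.101 at 24 h. On the scale of log2(TPM + 1) the value at 3 h was 0.11, and against the control at 24 h the values at 3 and 12 h were 0.21 and 0.27. FOXP1 held 34.9% ± 2.20 (SD, n = 3) of the summed FOXP TPM at 0 h and 47.3% ± 1.41 (n = 3) at 6 h of LatB, while FOXP4 went from 63.8% ± 2.07 to 48.6% ± 0.350.

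The group means of the HNF4 paralogues took different courses over time, and the difference between the paralogues was not tested. HNF4A, on chromosome 20 (44355699 to 44432845, plus strand), was at 50.1, 49.0 and 44.1 CPM in control cells at 0 h and at 50.9 and 47.8 CPM at 24 h. LatB libraries held 53.9, 54.9 and 51.1 CPM at 3 h, 72.1, 71.1 and 67.9 CPM at 6 h, 71.7 and 53.5 CPM at 12 h, and 45.4, 51.7 and 46.1 CPM at 24 h. In CPM the groups overlapped at 24 h and at no earlier time. In TPM they also overlapped at 3 h, with means of 20.3 TPM with LatB and 20.2 TPM in control cells at 0 h. The fitted log2 change was 0.16 ± 0.0903 at 3 h, 0.56 ± 0.0902 at 6 h, 0.39 ± 0.10 at 12 h and -0.05 ± 0.101 at 24 h.

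HNF4G, the paralogue most known from the gut and from a role beside HNF4A in enterocytes, was at 14.8, 13.4 and 13.2 CPM in control cells at 0 h and at 15.2 and 13.9 CPM at 24 h. It lies on chromosome 8 (75407914 to 75566834, plus strand). LatB libraries held 19.3, 21.5 and 20.4 CPM at 3 h, 17.0, 17.2 and 17.1 CPM at 6 h, 9.71 and 3.75 CPM at 12 h, and 8.43, 9.30 and 7.91 CPM at 24 h. In CPM each library of 3 and 6 h lay above the controls of 0 h, and each library of 12 and 24 h lay below its controls. In TPM the groups of 6 and 12 h overlapped the controls of 0 h. Replicate 2 of 6 h was at 10.96 TPM and replicate 1 of 12 h at 8.05 TPM. The 0 h controls lay between 7.73 and 11.6 TPM. The log2 change was 0.56 ± 0.208 at 3 h and 0.31 ± 0.21 at 6 h, and -1.06 ± 0.252 at 12 h and -0.77 ± 0.234 at 24 h. HNF4A held 67.1% ± 4.53 (SD, n = 3) of the summed HNF4 TPM at 0 h, 58.3% ± 3.36 at 3 h of LatB and 81.5% ± 5.68 (n = 2) at 12 h, with 66.2% ± 1.48 in control cells and 72.1% ± 1.41 in LatB cells at 24 h.

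**Figure D3:**
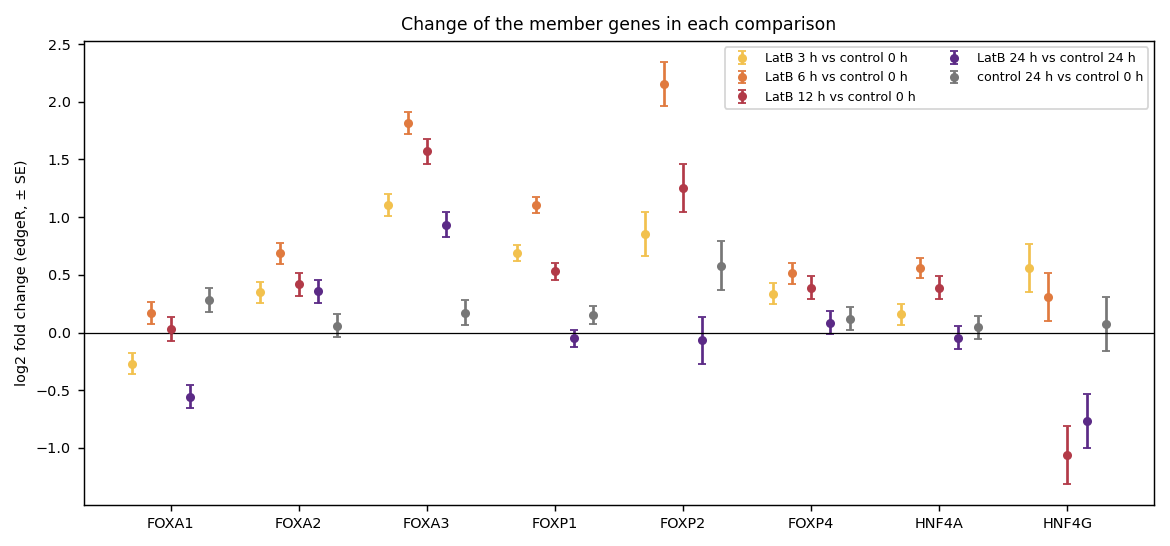
The log2 fold change (y axis) of each member (x axis) in the 5 comparisons, as fitted by edgeR. Points are estimates and bars are 1 SE on each side; colours stand for the comparisons. FOXA2 and FOXA3 lie above 0 in all LatB comparisons, FOXP1, FOXP2, FOXP4 and HNF4A lie near 0 at 24 h, and FOXA1 and HNF4G lie below 0 at 24 h.

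A gene was called at a Benjamini-Hochberg adjusted p under 0.05 over all 16705 genes tested (edgeR), and all 8 members passed the filter on low counts. At 3 h 6 of 8 members were called, against 31.6% of all genes, at 6 h 6 of 8 against 43.3%, at 12 h 7 of 8 against 35.8%, and at 24 h 4 of 8 against 40.8%. In the control at 24 h against 0 h none of 8 was called by edgeR or by DESeq2, against 0.251% of all genes by edgeR. There 2 members lay under an unadjusted p of 0.05 by edgeR, as did 1414 of all 16705 genes. The control groups of FOXA1, FOXA3, FOXP1, FOXP2 and FOXP4 did not overlap. How many of all genes had control groups without overlap was not counted. Nothing is read from these counts, since the members were chosen with the levels known. The median log2 change over all genes lay between -0.01 and 0.01 in every comparison, and scaling by the total alone moved it to -0.10 at 6 h.

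Calls of members were both lost and gained under other settings. Against the other control group FOXP2 at 3 h and FOXP4 at 3 and 12 h lost their calls, and FOXP2 at 24 h gained one. With only the groups compared in the fit FOXA1 and HNF4G at 6 h, FOXA1 between the controls and HNF4G at 3 h gained calls, the last also with DESeq2. On the TPM scale FOXP4 at 3 h and HNF4G at 24 h lost theirs. Without replicate 1 of LatB 12 h 4 members were called at 12 h, with FOXA2, FOXP4 and HNF4A no longer called, and without replicate 1 of the control at 24 h 2 members were called at 24 h, with FOXA2 and HNF4G no longer called. The HNF4G call at 24 h was also lost without replicate 2 of the control at 24 h and without replicate 3 of LatB 24 h. FOXA1 at 3 h lost its call without replicate 1 or replicate 3 of LatB 3 h and without any of the 3 controls at 0 h, and FOXA2 at 3 h lost it without replicate 3 of LatB 3 h. Without replicate 2 of LatB 12 h, the library high in mesenchyme markers, all 7 members called at 12 h were called and HNF4G was at -0.51. Without replicate 1, HNF4G was at -1.88, FOXA2 at 0.20, FOXA3 at 1.34, FOXP1 at 0.35 and FOXP2 at 1.04, while without replicate 2 FOXA2 was at 0.61, FOXP4 at 0.61 and HNF4A at 0.59.

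The share of a gene that begins at each start is another quantity than its level and was not used to choose the members. Annotated 5′ ends within 500 bases of each other were joined to a cluster, and estimated reads were summed per cluster. HNF4A had 2 such clusters, the upstream P2 side with 4 transcripts (44355699 to 44355805) and the P1 side with 5 transcripts (44401239 to 44401399). A window of each side, from RefSeq on GRCh38.p14, plus strand, is shown because HNF4A was read from both sides. That of P2 is chr20:44355449-44355748 and that of P1 is chr20:44400989-44401288. The P1 window is set at 44401239, the start of a transcript that averaged 0.235 TPM. The P1 transcript with the most TPM, 13.3 on average, starts at 44401399, beyond the end of this window. Capitals mark matches to the letters named above. The P2 window held AGATAA at position -26 and the reverse complement of CCAAT at position -225, and the P1 window held no match. The bases at the start at 44401399 were not searched.

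HNF4A P2: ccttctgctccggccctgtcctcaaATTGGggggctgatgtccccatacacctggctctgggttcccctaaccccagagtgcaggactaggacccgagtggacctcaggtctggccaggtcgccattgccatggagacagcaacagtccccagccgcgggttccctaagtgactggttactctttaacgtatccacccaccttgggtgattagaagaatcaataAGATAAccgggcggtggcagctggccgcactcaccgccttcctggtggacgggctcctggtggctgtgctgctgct

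HNF4A P1: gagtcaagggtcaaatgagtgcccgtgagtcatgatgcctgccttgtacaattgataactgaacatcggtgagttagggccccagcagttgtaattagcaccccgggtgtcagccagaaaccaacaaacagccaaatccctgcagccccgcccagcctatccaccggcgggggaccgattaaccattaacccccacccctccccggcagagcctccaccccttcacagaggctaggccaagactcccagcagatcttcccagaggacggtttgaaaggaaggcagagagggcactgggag

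Transcripts of the P2 side made up 32.9%, 33.47% and 36.9% of HNF4A TPM in control cells at 0 h and 34.9% and 34.2% at 24 h. With LatB the share was 30.2%, 36.7% and 31.9% at 3 h, 34.9%, 34.4% and 30.1% at 6 h, and 35.0% and 33.0% at 12 h, and at 24 h it was 26.3%, 32.4% and 27.0%. The 3 libraries of 24 h lay below both controls of that time, and the other LatB groups overlapped the controls. Over all times the share was 32% ± 3.33 (SD, n = 11) with LatB and 34.5% ± 1.53 (n = 5) in control cells, a difference of -2.48 percentage points that did not pass an exact permutation test (two-sided, p = 0.138, 4368 regroupings). At 24 h alone, 3 libraries against 2 cannot reach significance in an exact permutation test, whose smallest p there is 0.1. By reads in place of TPM the P2 side held 12.9% of HNF4A on average over the libraries, between 9.85% and 14.8%, so that most HNF4A RNA came from P1 in each library.

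The same exact test was made for the leading start of the 5 members with at least 2 clusters of 10% or more of TPM, HNF4A included. FOXA1 began at its leading start for 70.0% ± 2.34 (SD, n = 11) of TPM with LatB and 66.6% ± 1.87 (n = 5) in control cells. This gave p = 0.0140 by the exact permutation test and 0.0698 after adjustment over the 5 tests. The test pooled the times, which differ between LatB and control libraries. Group means were 65.5% and 68.3% in control cells at 0 and 24 h. With LatB they were 71.4%, 68.1%, 70.5% and 70.3% at 3, 6, 12 and 24 h. Nearly all the rest of FOXA1 TPM was 1 short upstream transcript that held 4.16% to 5.27% of FOXA1 reads in the group means. For FOXP1, FOXP2, HNF4A and HNF4G the adjusted p of this exact permutation test lay between 0.345 and 0.546. FOXP2 shares were the least precise, as its leading start ranged from 26.7% to 63.8% over the libraries.

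Tested gene by gene across all 8821 genes with more than 1 cluster, no member had a start usage called by edgeR in any comparison, and 2 of 35 tests of a member were under an unadjusted p of 0.05, both at 3 h. All genes called amounted to 0.805% at 3 h, 0.714% at 6 h, 0.952% at 12 h and 1.18% at 24 h, and to 0.102% between the controls. FOXA3, with 1 cluster, could not be tested. FOXA2 came closest, at an adjusted p of 0.0692 at 3 h (edgeR). Its upstream start held 6.05%, 5.19% and 4.99% of FOXA2 TPM in control cells at 0 h, and 0.929%, 0.950% and none at 3 h of LatB. In control cells at 24 h it held 18.4% and 10%, and in LatB cells of that time 1.38%, 6.68% and 4.50%. The groups of 3 h and of 24 h did not overlap their controls, and the 2 control groups differed from each other too. With limma in place of edgeR, FOXA2 was called at 24 h (adjusted p = 0.0104) and FOXP1 at 6 h (adjusted p = 0.00766), among 978 and 429 genes called in all. In FOXP1 the start near position 71064926 held 8.35% of TPM in control cells at 0 h and 14.5% at 6 h of LatB, but also 14.6% in control cells at 24 h, with 8.36% in LatB cells of that time. By reads the same shares were 4.70%, 8.98%, 4.18% and 4.39%, so that the 2 scales placed the control at 24 h differently. These shares are means over the libraries of a group. Salmon shares reads among overlapping transcripts of a gene, and how far this sharing moved these values was not tested.

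**Figure D4:**
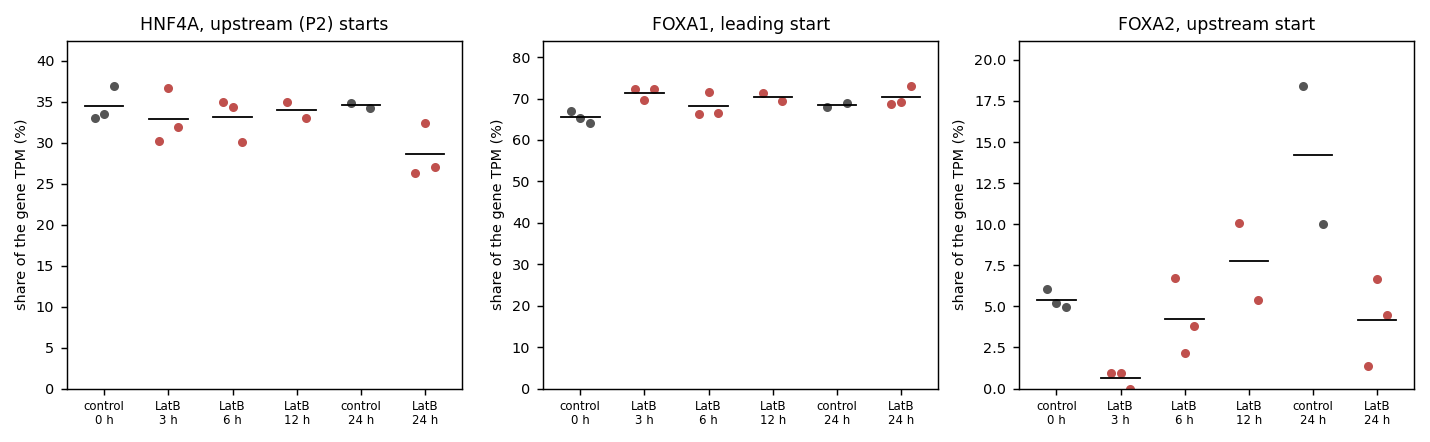
Share of a gene's TPM (y axis, percent, from 0) that begins at the HNF4A upstream starts, the FOXA1 leading start and the FOXA2 upstream start, by group along the x axis. Points are libraries, red for LatB and grey for control, and bars are means. The HNF4A share lay between 26.3% and 36.9% in all libraries, and the FOXA2 share was lowest at 3 h of LatB.

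Factors that share endoderm enhancers with these genes gave a mixed picture. Of 22 such factors 21 were tested by edgeR: 8 rose and 3 fell at 3 h, 9 rose and 1 fell at 6 h, 5 rose and 8 fell at 12 h, and 2 rose and 11 fell at 24 h. Of all genes tested 16.8%, 22.9%, 19.1% and 21.9% rose and 14.7%, 20.4%, 16.8% and 18.8% fell at these times, and these shares are the background for each list below as well. The median log2 change of the list was -0.10, 0.14, -0.18 and -0.28 in that order, against medians near 0 over all genes. In the control at 24 h against 0 h 0 of 21 were called by edgeR or DESeq2, and 2 lay under an unadjusted p of 0.05. RFX6, which acts upstream of endocrine genes in the gut tube, rose by 1.92 ± 0.188 at 3 h, 2.66 ± 0.189 at 6 h, 1.91 ± 0.203 at 12 h and 1.32 ± 0.206 (adjusted p = 0.000253) at 24 h on the log2 scale. GATA4, a zinc finger partner of FOXA at liver and foregut enhancers, rose at each time, by 0.76 ± 0.104 at 3 h, 0.96 ± 0.104 at 6 h, 0.64 ± 0.114 at 12 h and 0.42 ± 0.116 (adjusted p = 0.0114) at 24 h. Its paralogue GATA6 was called at 12 h only among these comparisons, at -0.25.

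The factors that fell at 24 h included regulators of the progenitor state. ONECUT1 (HNF6), a homeobox factor of pancreas and liver development, changed by -1.09 ± 0.0917 (adjusted p = 2.58e-06) at 24 h and by -0.10 at 3 h, which was not called. CDX2, the hindgut homeobox gene, changed by -1.06 ± 0.196 (adjusted p = 0.000863) at 24 h. PDX1, which marks the pancreatic bud and its progenitors, passed the test at no time, with a log2 value of -0.24 ± 0.107 at 24 h. Of the 22 factors 7 also stand in the lists of progenitor or gut markers. Endocrine markers moved at the same times: 2, 6, 8 and 7 of 12 rose at 3, 6, 12 and 24 h. Their median log2 change was 0.65, 1.34, 1.77 and 1.52 in that order. Between the controls, at 24 h against 0 h, it was 1.47, with 0 of 12 called. At 24 h of LatB against control 24 h NEUROG3 was at 4.34 ± 0.422, INSM1 at 4.31 ± 0.394 and NKX2-2 at 3.96 ± 0.427. The part of endocrine cells in the changes of the partner factors was not tested.

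**Figure D5:**
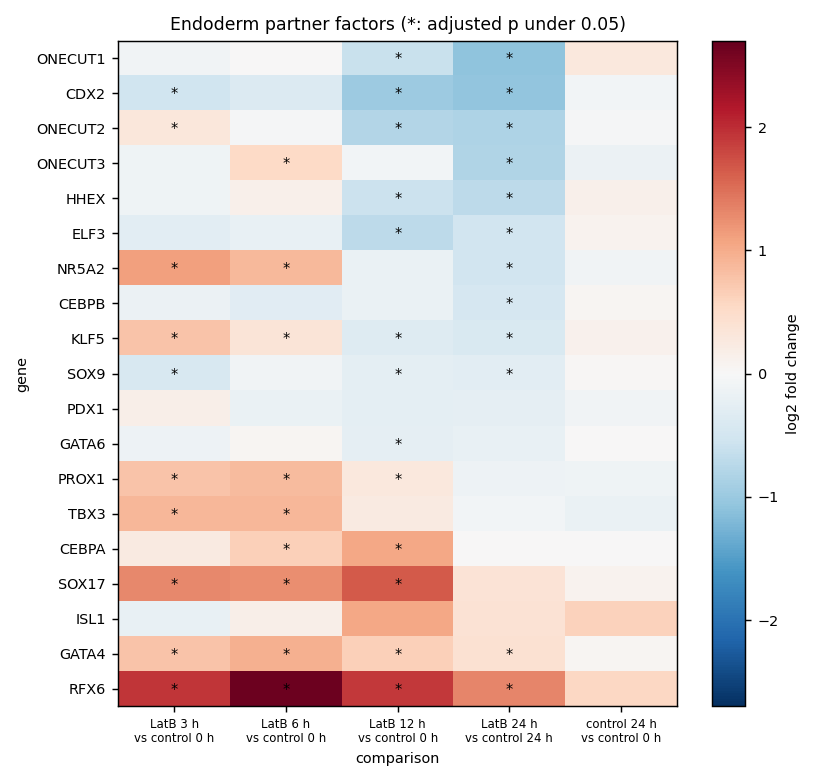
The log2 fold change of 19 of the 21 partner factors tested (rows, ordered by the value at 24 h) in the 5 comparisons (columns), coloured from blue for lower to red for higher; an asterisk marks an adjusted p under 0.05. RFX6 and GATA4 rose in each LatB comparison, and most asterisks at 24 h mark lower values.

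Coregulators that HNF4 proteins recruit, and receptors that compete for their sites, were tested for 15 of 16 genes. At 3 h 10 rose and 1 fell, at 6 h 8 rose and 2 fell, at 12 h 6 rose and 1 fell, and at 24 h 5 rose and 3 fell, with list medians of 0.33, 0.22, 0.17 and 0.03. NR2F2 (COUP-TFII), an orphan receptor that binds the same repeats, rose by 1.0 ± 0.0877 at 3 h and 1.26 ± 0.0882 at 6 h and was at -0.31 ± 0.0971 (adjusted p = 0.0220) at 24 h. PPARGC1A (PGC-1α), a coactivator of HNF4A in the fasted liver, rose by 0.43 ± 0.136 at 3 h and 0.71 ± 0.137 at 6 h and was at -0.45 ± 0.152 (adjusted p = 0.0315) at 24 h. Both genes thus passed the test in both directions, early against control 0 h and late against control 24 h. The early times have no vehicle group of their own.

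Genes known as HNF4 targets were tested for 13 of 19. None fell by edgeR, with 1 lower at an unadjusted p under 0.05 at 12 h, and 4, 3, 5 and 4 rose at 3, 6, 12 and 24 h, with list medians of 0.56, 0.34, 0.58 and 0.42. These 13 genes thus gave 30.8%, 23.1%, 38.5% and 30.8% called, all upward, and at 6 h that lay near the share of all genes that rose. APOB, the structural protein of chylomicrons and very low density lipoproteins, rose by 1.75 ± 0.237 at 3 h, 2.24 ± 0.239 at 6 h, 1.88 ± 0.255 at 12 h and 1.81 ± 0.273 (adjusted p = 0.000198) at 24 h. MTTP, which loads lipid onto APOB, rose by 1.02 ± 0.286 (adjusted p = 0.0122) at 24 h, and APOA2 by 1.19 ± 0.197 (adjusted p = 0.000391). Liver markers moved in some of the same libraries, and 3 genes of the target list are also liver markers: 2, 2 and 6 of 8 liver markers rose at 3, 6 and 12 h, and 1 fell and none rose at 24 h, where FGA was at -0.79 ± 0.228. Summed liver marker TPM was 1978 to 2343 in control cells at 0 h and 2789 to 2854 at 24 h. With LatB it was 2594 to 2984 at 3 h and 3146 to 3311 at 6 h. The part of the liver markers in the target genes was not tested.

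FOXA targets were tested for 14 of 16 genes, of which 5, 5, 6 and 5 rose and 0, 0, 0 and 1 fell at 3, 6, 12 and 24 h, with list medians of 0.24, 0.49, 1.24 and 0.94. IGFBP1, the hepatic insulin-like growth factor binding protein in whose promoter FOXA sites were mapped, rose by 3.26 ± 0.408 at 3 h and 1.66 ± 0.497 (adjusted p = 0.0168) at 24 h from 0.242 and 0.193 CPM in the controls. TFF3 and AGR2, secretory genes of mucous epithelia, rose by 1.71 ± 0.369 (adjusted p = 0.00246) and 1.70 ± 0.251 (adjusted p = 0.000177) at 24 h and were not called at 3 or 6 h. Of these 16 genes 5 also stand in a marker list. Corepressors that FOXP proteins recruit were all tested: 2, 5, 7 and 7 of 11 rose, and 1 fell at 3 h and none later, with medians of 0.07, 0.18, 0.21 and 0.21. At 24 h MTA2 rose by 0.45 ± 0.0499, CTBP2 by 0.39 ± 0.0465 and HDAC1 by 0.36 ± 0.0855.

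Other forkhead genes and nuclear receptors, taken by symbol, set the members beside their families. Of 44 other forkhead genes 27 were tested, and 6 rose and 2 fell at 3 h, 8 and 2 at 6 h, 10 and 2 at 12 h, and 7 and 4 at 24 h, where 29.6%, 37.0%, 44.4% and 40.7% of the 27 were called in either direction against the 31.6%, 43.3%, 35.8% and 40.8% of all genes given above. The widest calls at 24 h were FOXD1 (1.78 ± 0.501) and FOXP3 (1.77 ± 0.637) upward and FOXD2 (-1.16 ± 0.326) and FOXQ1 (-1.09 ± 0.174) downward, of which FOXQ1 alone was above 2 CPM in a group compared. Of 41 other nuclear receptors 38 were tested, and 12 rose and 3 fell at 3 h, 15 and 4 at 6 h, 5 and 3 at 12 h, and 3 and 10 at 24 h. NR4A1, an immediate early receptor, rose by 1.26 ± 0.27 at 24 h and NR5A1 by 2.35 ± 0.647, and the bile acid receptor NR1H4 (-1.77 ± 0.465) and the xenobiotic receptor NR1I2 (-1.90 ± 0.523) fell, the last 3 at under 1 CPM in each group. Of RNAs beside the members, TTC6, the neighbour of FOXA1, was the only one of 11 tested and was at -0.77 ± 0.22 (adjusted p = 0.0129) at 24 h.

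The patterns of 6 members resembled each other across the 16 libraries, and FOXA1 and HNF4G stood apart. As a description, FOXA2 and FOXA3 correlated at r = 0.93 in log2 CPM, FOXP1 and FOXP2 at 0.90 and FOXP2 and HNF4A at 0.89, while FOXA1 reached at most 0.33 with another member and HNF4G at most 0.42. The libraries fall into 6 groups, so these values largely restate the courses above. Among 12606 genes searched, the most alike were RNF4 (0.97) and FARSA (0.96) for FOXA2, CCNJL (0.98) and CLSTN3 (0.98) for FOXA3, and SNAPC3 (0.90) and KCND2 (0.86) for FOXA1. For the FOXP genes they were ARRB1 (0.99) and BRINP1 (0.99) with FOXP1, SEMA3A (0.95) and C1orf21 (0.93) with FOXP2, and EIF3G (0.96) and ZFP36L2 (0.95) with FOXP4. HNF4A was most like YAP1 (0.94) and UBE2R2 (0.93), and HNF4G most like CCSER1 (0.97) and HPS1 (0.96).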

How the data were processed

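RNA-seq of 16 libraries in 6 groups was analysed, each library assigned by its label. Per the submitters' processing notes the tables came from Salmon 1.3.0 on hg38; the study's methods describe STAR gene counts, another route, and strand use was not given in the sources used here. The authors deposited estimated counts and TPM for 177456 transcripts per library. A deposited table of fold changes and adjusted p-values made with DESeq2 was not used, nor were its 16 columns of per-sample values.

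Transcripts were joined to genes by GENCODE 44 on GRCh38 (165533 matched, and 2.92% to 3.17% of reads did not), summed to 35810 genes and rounded. edgeR 4.0.16 (R 4.3.3) fitted all 6 groups with TMM scaling, filterByExpr and the quasi-likelihood test, two-sided, over 16705 genes. Start usage was tested by diffSpliceDGE on clusters of starts joined within 500 bases, with limma 3.58.1 as the alternative, and checked on simulated data, where start-usage calls of edgeR included many false ones. Shares were compared by exact permutation tests. DESeq2 1.42.0, other scalings, filters, TPM with 1 or 0.1 added, the other control, a replicate block and leaving out each library were the alternatives. Replicates of a group differed by more than sampling noise.

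Members and lists were chosen with earlier results of these data known. Partner genes named were GATA4, GATA6, PDX1 and the 3 widest calls at 24 h, and from other lists up to 3 such calls (for other forkhead genes and receptors, 2 in each direction); some genes of these lists are counted but not reported here by name. For likeness the 2 genes with the highest Pearson r over 16 libraries were named. Positions are on GRCh38, and promoter windows come from RefSeq.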

Additional observations from a re-analysis of the deposited data

Results flagged for a closer look

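FOXA1 and HNF4G were singled out for their CPM values. Their libraries lay wholly on one side of the controls at some times and wholly on the other side at others. How many of all genes did the same was not counted. The difference between times was not tested. In TPM the HNF4G groups of 6 and 12 h overlapped the controls of 0 h. For HNF4G the log2 change was 0.56 at 3 h and 0.31 at 6 h, with each LatB library above the controls in CPM. Neither of these 2 values was called in the main edgeR fit (adjusted p = 0.0557 and 0.264). The HNF4G change was -1.06 at 12 h and -0.77 at 24 h, both called there, with each LatB library below the controls in CPM. For FOXA1 it was -0.27 at 3 h, 0.17 at 6 h and -0.56 at 24 h. The FOXA1 value at 6 h was called with only the groups compared in the fit and not otherwise, and was -0.03 on the scale of log2(TPM + 1) and -0.11 against the control at 24 h. The values of 3, 6 and 12 h share the 0 h controls, and that of 24 h has its own.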

How the results depend on the processing

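With only the groups compared in the fit, 3 members were called at 12 h in place of 7, 1 (FOXA1) in place of 0 between the controls, and 8 partner factors in place of 13 at 12 h. With limma in place of edgeR, 1 member had a start usage called at 24 h (FOXA2) and 1 at 6 h (FOXP1), in place of 0. Leaving out 1 library at a time, the members called ranged from 4 to 6 at 3 h, stayed at 6 at 6 h, and ranged from 4 to 7 at 12 h and from 2 to 4 at 24 h, and the HNF4A upstream share differed by -2.94 to -1.87 percentage points. The other alternatives kept these counts within 1.5 times and the share difference below 0. Of 23 called changes of a member 10 lost the call under at least 1 alternative, or 25 of 357 refits, 5 changes not called gained one, and no member changed direction past the threshold. The cause was not tested. Same-numbered libraries did not deviate together over all genes (correlations of -0.059 to 0.059). With 2 or 3 libraries per group this cannot show that they were unpaired, and the main fit used no pairing. With a replicate block 5 members were called at 3 h (FOXA1 lost its call), and 6, 7 and 4 at 6, 12 and 24 h. With 2 libraries at 12 h and in the 24 h control, the lone library left by a leave-out was assumed to vary like the other groups. Low counts limit FOXP2 and HNF4G most.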
